A study of Mus musculus with 11 samples.

Results

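The collagen genes are the 44 protein-coding genes, of 55421 genes in the count table, whose mouse symbol is made of Col, a type number, the letter a and a chain number. They were followed in the hearts of 11 female C57BL/6J mice aged 8 weeks. Myocardial infarction (MI) was induced in 8 mice by tying off the left anterior descending artery, and tissue of the infarct and its border zone was taken 3 days later. Of these mice, 4 received the ADAM10 inhibitor GI254023X (A10i, 100 mg/kg, dissolved in DMSO) and 4 received DMSO alone, in both cases from an implanted osmotic minipump. The other 3 mice were sham operated, also received DMSO and gave healthy heart tissue, so all 3 groups share the solvent and sham mice differ from infarcted mice in both the ligation and the region excised. A mouse gave 1 library, and the libraries are named S1, S2 and S3 (sham), A105, A127, A128 and A129 (DMSO) and A116, A117, A119 and A120 (A10i), the order in which values are listed.

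Collagens are the main structural proteins of the extracellular matrix, each a triple helix of chains encoded by members of this family. Fibrillar collagens (types I, III and V and their minor relatives) form the tension-bearing fibres of the heart and of a scar. Type IV collagen builds the sheet of the basement membrane around vessels and cardiomyocytes, type VI forms beaded filaments around cells, and type VIII forms hexagonal networks in vessel walls. The FACITs (fibril-associated collagens with interrupted triple helices) decorate the surface of fibrils, and multiplexins lie near basement membranes. In the heart these chains are made mostly by fibroblasts, with basement membrane chains also coming from endothelial and mural cells, and after an infarction activated fibroblasts lay down the collagen that replaces lost muscle.

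By class the 44 genes were 11 fibrillar, 6 basement membrane, 6 beaded filament, 3 network, 9 FACIT, 2 multiplexin, 4 transmembrane, 1 anchoring fibril (Col7a1) and 2 other genes (Col26a1 and Col28a1). All 44 had the same start and end in the deposited table and in the GENCODE M21 annotation of GRCm38, which is mm10. The 11 libraries held 21702623 to 29511768 counts, and 15 pairs of libraries of 1 group differed by more than counting error (chi-square per degree of freedom 3.80 to 55.2). Every collagen had at least 1 count in some library, and 30 in sham, 31 in DMSO and 31 in A10i hearts had a mean of at least 1 CPM (counts per 1000000 counts, on library sizes scaled by TMM, which lines up the bulk of genes between libraries). Col2a1, Col6a4, Col9a1, Col10a1, Col17a1 and Col19a1 stayed below the filter on low counts in all 3 comparisons, with at most 0.588 CPM in any library.

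Collagen messages took a larger share of the RNA in infarcted hearts. All collagens together held 0.198 to 0.224% of the counts in sham hearts, 0.364 to 1.05% in DMSO hearts and 0.654 to 1.30% in A10i hearts, so neither infarcted group overlapped sham, while the 2 infarcted groups overlapped each other. Mitochondrial messages took 21.5 to 22.2% of the counts in sham, 14.8 to 18.6% in DMSO and 15.7 to 17.9% in A10i hearts. With them left out of the total, the collagen share was 0.252 to 0.287% in sham hearts, with a mean of 0.273%. It was then 0.447 to 1.23% in DMSO and 0.789 to 1.54% in A10i hearts, still without overlap with sham. In tissue homogenates a lower count for a gene can come from fewer cells of a type or from less RNA per cell, and these cannot be told apart. DMSO mouse A105 was the lowest infarcted heart with 0.364%, DMSO mouse A129 reached 1.05% and A10i mouse A116 was the highest with 1.30%. The order of these mice returned in most but not all collagens. Of the 36 tested in DMSO against sham hearts, A105 was the lowest DMSO library in 25. A129 was the highest DMSO library in 23 of them and A116 the highest A10i library in 23. Of the 13 collagens that rose in DMSO against sham hearts, A105 was the lowest DMSO library in 11, A129 the highest DMSO library in 12 and A116 the highest A10i library in 12.

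Basement membrane chains were the largest class of the collagen message in sham hearts and fibrillar chains the largest in A10i hearts. To compare genes of different length, counts were divided by exonic length in kilobases (kb). On this per-kb scale, basement membrane chains held 47.6 to 50.7% of all collagen counts in sham hearts and fibrillar chains 23.0 to 24.7%. In A10i hearts the order was the reverse, with 56.6 to 65.7% fibrillar and 19.2 to 26.8% basement membrane. DMSO hearts spread from 33.1% fibrillar in A105, where basement membrane chains still led with 48.3%, through 46.2% in A128 to 57.8% in A127 and 59.2% in A129. Beaded filament chains held 14.5 to 15.1% in sham, 7.51 to 10.6% in DMSO and 6.30 to 9.05% in A10i hearts, and the other classes held less. These shares are descriptions without a test.

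**Figure D1:**
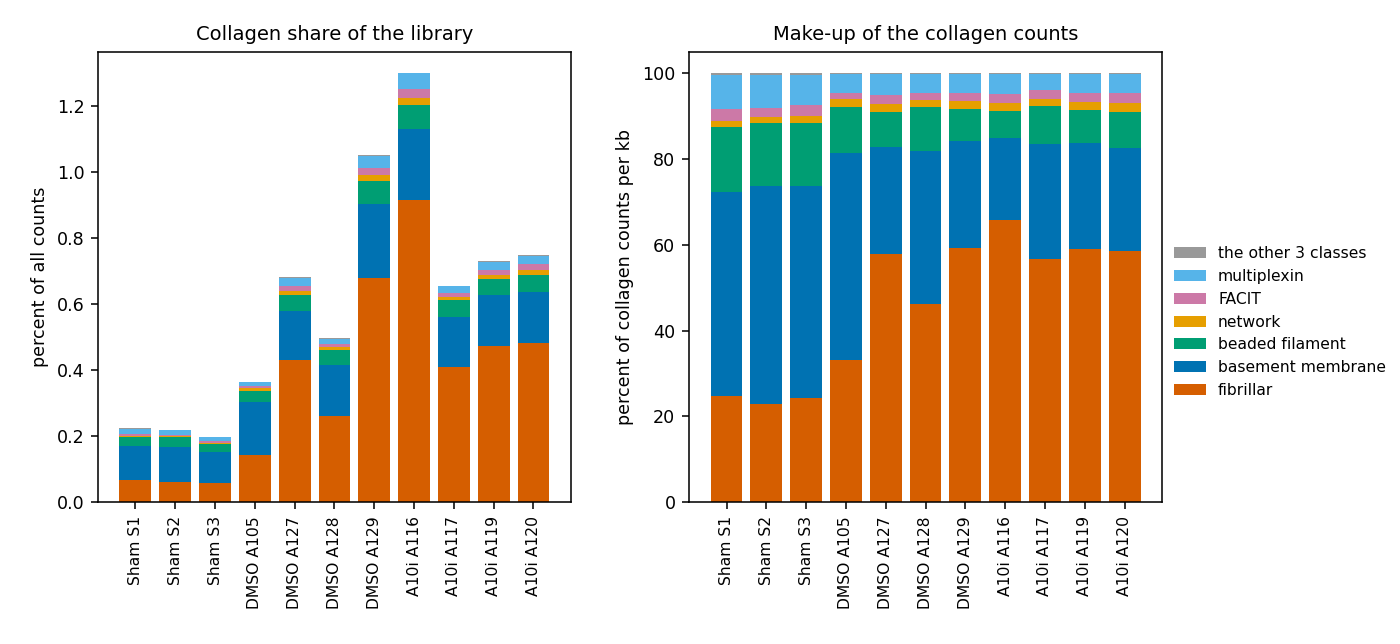
The left panel stacks the percent of all counts held by each collagen class in each of the 11 libraries, and the right panel stacks the percent of collagen counts per kb held by each class, with libraries named by group on the x axes. The 3 sham bars on the left reach about 0.213% on average, the A116 bar reaches 1.30%, and on the right the fibrillar share lies below 50% in the sham hearts, A105 and A128 and above it in the other 6 libraries.

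At the level of single genes, Col4a1 led the sham heart with 76.1 ± 5.10 CPM per kb (SD, n = 3), followed by its partner Col4a2 with 66.7 ± 3.93, and Col4a1 was the higher of the pair in each of the 3 libraries. Col3a1 with 27.5 ± 3.15 and Col6a1 with 26.4 CPM per kb came next and differed by less than 1 SD. In DMSO hearts Col3a1 (147 ± 77.7 CPM per kb, SD, n = 4), Col1a1 (129.3 ± 85.7) and Col4a1 (121 ± 20.3) stood at the head, and their order lies within the spread between mice. In A10i hearts Col1a1 (222 ± 95.1) and Col3a1 (214 ± 61.9) led, again within their spread, and Col4a1 followed at 122 ± 18.6 CPM per kb (SD, n = 4).

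**Figure D2:**
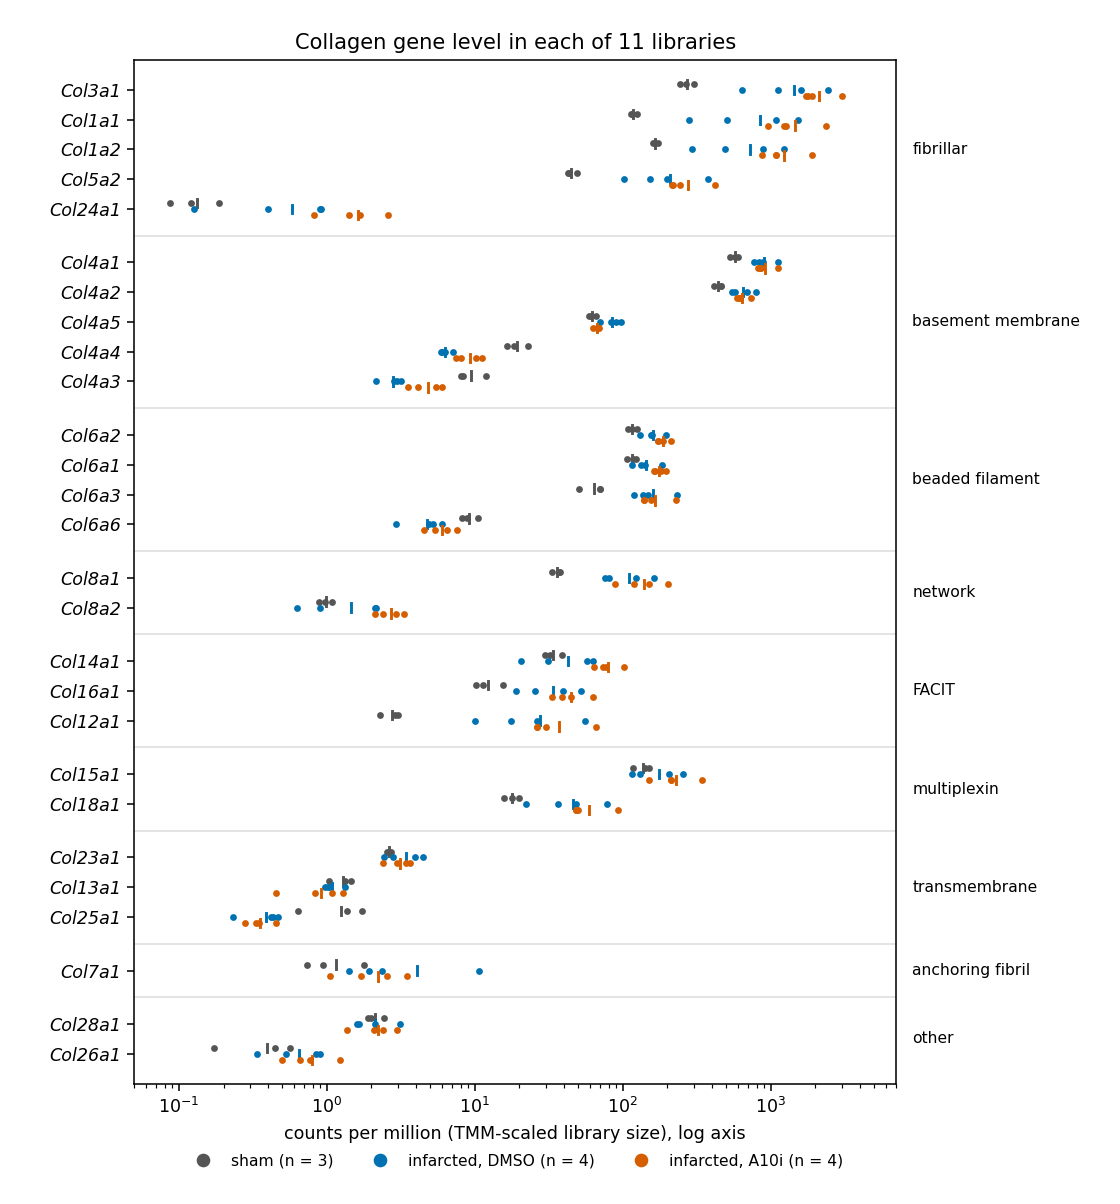
Each dot is 1 library's level in CPM on a log axis for 27 collagens, grouped by class, with a vertical tick at the group mean (sham n = 3, DMSO n = 4, A10i n = 4). Sham dots of Col1a1, Col3a1, Col12a1 and Col5a2 lie to the left of all infarcted hearts, those of Col4a3 and Col4a4 to the right of all of them, and Col15a1 and Col13a1 overlap.

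DMSO was then compared with sham to ask which collagens differ between infarcted and healthy hearts without the inhibitor. Of 36 collagens that passed the filter, 13 rose and 4 fell (edgeR's quasi-likelihood test, Benjamini-Hochberg adjusted p under 0.01 over 17117 genes, of which 12.9% rose and 9.60% fell). The median log2 fold change of the 36 was 0.56, against 0.00 for all genes tested. In 16 collagens every DMSO library lay above every sham library and in 4 every one lay below, where this held for 25.1% and 23.6% of all genes. Fibrillar genes gave the most rises, 7 of 10 tested. The other rises came from basement membrane (2 of 6), FACIT (2 of 6), network (1 of 2) and beaded filament (1 of 4) genes. The falls came from basement membrane (2 of 6), beaded filament (1 of 4) and transmembrane (1 of 3) genes.

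Fewer of these calls were made with 2 sham libraries. With any 1 of the 3 sham libraries left out, only Col5a3 and Col27a1 were still called higher and Col4a3 and Col4a4 lower (with S2 left out, also Col25a1), although all 17 genes kept their direction. Over all genes, higher calls fell from 2215 of 17117 to 977 of 17612 (S1 left out), 922 of 17495 (S2) and 939 of 17497 (S3). Collagens called higher fell more steeply, from 13 to 2 in each of these fits, so their excess over all genes was not kept. Without a filter on low counts, 6 collagens were called higher, among them none of Col1a1, Col1a2 and Col3a1. Over all genes, 2472 of 31308 were called higher in that fit.

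Type I collagen, the chief component of scar fibres, is built from Col1a1 and Col1a2 chains. Col1a1 (ENSMUSG00000001506, chr11:94936224-94953042) stood at 125, 113 and 115 CPM in sham, 278, 1087, 509 and 1521 in DMSO and 2369, 959, 1229 and 1266 in A10i hearts. Sham libraries were tight, all infarcted hearts lay above them, and infarcted hearts differed up to 8.51-fold among themselves. Col1a1 rose in DMSO against sham hearts (log2 fold change 2.85 ± 0.53 SE, adjusted p = 0.00346, edgeR), a call that was lost without A129. Col1a2 (ENSMUSG00000029661, chr6:4504814-4541544) measured 171, 165 and 159.9 CPM in sham, 294, 882, 487 and 1222 in DMSO and 1882, 869, 1083 and 1087 in A10i hearts and also rose (log2 fold change 2.12 ± 0.43 SE, adjusted p = 0.00525, edgeR), with its call lost without A127 or without A129. The pattern over mice was that of Col1a1, with A105 lowest and A116 highest.

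Type III collagen, a single-chain fibre of compliant tissue and early scar, is encoded by Col3a1 (ENSMUSG00000026043, chr1:45311538-45349706). Its level was 303, 266 and 241 CPM in sham, 635, 1605, 1109.7 and 2419 in DMSO and 3005, 1731, 1895 and 1768 in A10i hearts. All infarcted hearts lay above all sham hearts, and Col3a1 rose in DMSO against sham (log2 fold change 2.42 ± 0.40 SE, adjusted p = 0.00220, edgeR). Col5a2, a type V chain that nucleates fibrils and lies tail to tail with Col3a1 at a distance of 24614 bases on chromosome 1, went from 49.1, 42.5 and 43.1 CPM in sham to 102, 199.5, 152 and 376 in DMSO and 421, 219, 215 and 241 in A10i hearts. It rose likewise in DMSO hearts (log2 fold change 2.21 ± 0.40 SE, adjusted p = 0.00300, edgeR). The partner chain Col5a1 measured 69.4, 65.9 and 61.2 CPM in sham, 114, 244, 166 and 367 in DMSO and 468, 219.8, 245 and 261 in A10i hearts and rose (log2 fold change 1.77 ± 0.35 SE, adjusted p = 0.00460, edgeR). Its call was lost without A127.

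Of fibrillar genes at a lower level, Col5a3, the third type V chain, went from 23.9, 23.7 and 20.6 CPM in sham to 43.8, 51.5, 63.8 and 82.5 in DMSO and 82.7, 48.7, 43.2 and 44.7 in A10i hearts (log2 fold change 1.41 ± 0.20 SE, adjusted p = 0.00111, edgeR). Col27a1, a fibrillar collagen of cartilage, went from 7.79, 7.33 and 6.85 CPM in sham to 14.2, 18.9, 15.7 and 25.2 in DMSO and 21.4, 14.3, 12.8 and 11.8 in A10i hearts (log2 fold change 1.34 ± 0.19 SE, adjusted p = 0.000914, edgeR). Both rose, no infarcted heart overlapped sham, and theirs were the smallest adjusted p-values among the rising collagens.

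The remaining fibrillar genes were low. Col24a1 had only 2, 5 and 3 counts in the sham libraries and measured 0.0866, 0.187 and 0.121 CPM there, 0.126, 0.905, 0.399 and 0.902 in DMSO and 2.58, 0.812, 1.403 and 1.66 in A10i hearts, so A105 overlapped sham and the other DMSO libraries did not. Col11a1, a minor fibrillar chain of cartilage, measured 0.0866, 0.150 and 0.363 CPM in sham, 0.295, 2.41, 0.698 and 3.73 in DMSO and 7.17, 1.86, 3.01 and 3.78 in A10i hearts, where again A105 alone overlapped sham. Neither Col24a1 (adjusted p = 0.0351) nor Col11a1 (adjusted p = 0.0271, edgeR) passed the threshold in DMSO hearts, and Col11a2 had a log2 fold change of -0.34 (adjusted p = 0.371). Col2a1, the fibre chain of cartilage, was not tested.

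To show what the start regions of rising fibrillar genes look like, the bases before the transcription start of Col3a1 and Col5a1 were taken from RefSeq (GRCm38.p6, plus strand, chr1:45311288-45311537 and chr2:27886175-27886424). Windows of 250 bases before the start were at hand for 35 of the 44 collagens. Capitals mark 3 short motifs on either strand. These were the TATA box, spelled TATAAA, the core of the CAAT box, spelled CCAAT, and the GC box, spelled GGGCGG, none of which contains another.
Col3a1: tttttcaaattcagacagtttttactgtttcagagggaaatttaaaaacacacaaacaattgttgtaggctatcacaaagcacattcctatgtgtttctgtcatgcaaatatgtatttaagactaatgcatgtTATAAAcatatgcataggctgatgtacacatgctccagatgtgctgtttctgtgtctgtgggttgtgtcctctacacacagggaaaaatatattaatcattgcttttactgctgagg
Col5a1: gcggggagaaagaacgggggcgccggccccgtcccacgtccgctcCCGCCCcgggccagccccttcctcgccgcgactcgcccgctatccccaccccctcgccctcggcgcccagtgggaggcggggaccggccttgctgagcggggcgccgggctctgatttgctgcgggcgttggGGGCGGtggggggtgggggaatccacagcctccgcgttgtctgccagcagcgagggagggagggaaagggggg
The Col3a1 window had 35.2% G and C, 1 TATAAA and no GGGCGG, whereas the Col5a1 window had 76.4% G and C and 2 GGGCGG matches, although both genes rose. The TATAAA of Col3a1 lies near the middle of its window and not close to the start. Motifs were matched by spelling alone, and whether a match works in the promoter was not tested. Among 38 windows of collagens, TATAAA occurred in 13.2%, CCAAT in 34.2% and GGGCGG in 57.9%, compared with 12.4%, 33.8% and 32.7% of all 32851 windows of RefSeq. The median G and C content of the collagen windows was 59.0%, and that of all windows was 52.4%.

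The 6 basement membrane genes lie in the genome as 3 head-to-head pairs, and the pairs went different ways. Col4a1 and Col4a2, whose chains make the common type IV network, start so close on opposite strands of chromosome 8 that their first exons share 22 bases. Col4a4 and Col4a3, whose chains make a specialised network known from kidney and lung, start 71 bases apart on chromosome 1. Col4a6 and Col4a5 start 1308 bases apart on chromosome X. The bases between or at these starts (RefSeq, GRCm38.p6, plus strand) were, for chr8:11312805-11312826, chr1:82586850-82586920 and the bases before the Col4a5 start at chrX:141475169-141475384:
Col4a1 and Col4a2, shared: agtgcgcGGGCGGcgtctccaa
Col4a4 and Col4a3, between the starts: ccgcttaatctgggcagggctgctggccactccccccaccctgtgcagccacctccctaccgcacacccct
Col4a5, before the start: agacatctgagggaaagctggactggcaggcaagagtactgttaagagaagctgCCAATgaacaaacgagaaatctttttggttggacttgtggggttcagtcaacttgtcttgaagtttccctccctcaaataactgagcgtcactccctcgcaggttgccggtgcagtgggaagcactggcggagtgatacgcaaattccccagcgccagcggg
The shared bases of Col4a1 and Col4a2 hold 1 GGGCGG, the Col4a5 bases hold 1 CCAAT, and the 71 bases between Col4a4 and Col4a3 hold none of the 3 motifs.

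The common pair was high and changed modestly. Col4a1 measured 572, 604 and 528 CPM in sham, 886, 771, 829 and 1117 in DMSO and 1116, 823, 855 and 841 in A10i hearts and rose in DMSO against sham (log2 fold change 0.66 ± 0.14 SE, adjusted p = 0.00543, edgeR). Col4a2 measured 456, 457 and 412 CPM in sham, 691, 549.9, 568 and 789.9 in DMSO and 735, 606, 621 and 588 in A10i hearts. Its difference was of the same size (log2 fold change 0.55 ± 0.14 SE) but missed the threshold with an adjusted p of 0.0126 (edgeR). All infarcted libraries of both genes lay above all sham libraries.

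The specialised pair fell. Col4a3 (ENSMUSG00000079465, chr1:82586921-82722059) went from 8.36, 12.0 and 8.10 CPM in sham to 2.15, 3.18, 2.99 and 2.82 in DMSO and 4.12, 3.52, 5.49 and 6.02 in A10i hearts. Col4a4 (ENSMUSG00000067158, chr1:82448423-82586849) went from 16.5, 23.0 and 18.5 CPM in sham to 6.24, 7.14, 5.98 and 5.88 in DMSO and 8.01, 7.46, 10.2 and 11.1 in A10i hearts. The 3 groups did not overlap for either gene, with sham highest, A10i between and DMSO lowest. The fall in DMSO hearts was called for Col4a3 (log2 fold change -1.76 ± 0.19 SE, adjusted p = 0.000233) and for Col4a4 (log2 fold change -1.62 ± 0.13 SE, adjusted p = 7.20e-05, edgeR), and both calls held in each fit that left out 1 library.

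Of the pair on chromosome X, Col4a5 measured 59.0, 65.6 and 60.7 CPM in sham, 89.8, 69.9, 96.6 and 83.4 in DMSO and 66.7, 63.1, 69.4 and 67.8 in A10i hearts. It rose in DMSO hearts (log2 fold change 0.46 ± 0.11 SE, adjusted p = 0.00968, edgeR), close to the threshold, and was no longer called without A105, A128 or A129. Col4a6 was low, with a log2 fold change of -0.11 and an adjusted p of 0.728.

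Type VI collagen, the beaded filament that links cells to the fibrillar matrix, is an assembly of Col6a1, Col6a2 and a further chain such as Col6a3. Col6a3 stood at 70.2, 70.02 and 50.1 CPM in sham, 119.5, 148, 138 and 232 in DMSO and 228, 155, 138 and 138 in A10i hearts and rose in DMSO against sham (log2 fold change 1.32 ± 0.23 SE, adjusted p = 0.00274, edgeR). Col6a1 measured 122, 116.8 and 107 CPM in sham, 115, 140.5, 133 and 183 in DMSO and 195, 164, 163 and 182 in A10i hearts, and A105 lay within the sham range (log2 fold change 0.31 ± 0.15 SE, adjusted p = 0.122, edgeR). Col6a2 measured 125, 115 and 108 CPM in sham, 130.2, 154, 157 and 197 in DMSO and 211, 172, 173 and 186 in A10i hearts (log2 fold change 0.46 ± 0.13 SE, adjusted p = 0.0224, edgeR). Of the 3 core chains, Col6a3 thus differed most from sham. Col6a6, an alternative to Col6a3, fell from 8.83, 10.5 and 8.14 CPM in sham to 2.95, 5.23, 6.02 and 4.86 in DMSO hearts (log2 fold change -0.94 ± 0.21 SE, adjusted p = 0.00730, edgeR), with its call lost without A127 or A129, and measured 4.52, 7.62, 6.44 and 5.35 CPM in A10i hearts.

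Type VIII collagen is the network collagen of vessel walls. Col8a1 measured 37.3, 33.3 and 37.0 CPM in sham, 75.4, 123, 79.9 and 162 in DMSO and 202, 88.1, 118.7 and 149 in A10i hearts, with no overlap of sham and infarcted hearts, and rose in DMSO hearts (log2 fold change 1.62 ± 0.26 SE, adjusted p = 0.00184, edgeR). Its partner Col8a2 was far lower, with 1.08, 0.972 and 0.887 CPM in sham, 0.632, 2.14, 0.898 and 2.12 in DMSO and 3.33, 2.13, 2.39 and 2.92 in A10i hearts. Of the DMSO libraries of Col8a2, A105 lay below sham, A128 within its spread and the other 2 above, and the difference was not called (adjusted p = 0.316, edgeR).

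Among the FACITs, Col12a1, which binds the surface of type I fibrils, had the largest rise of all collagens called in DMSO hearts. It went from 3.03, 2.88 and 2.30 CPM in sham to 9.95, 26.3, 17.5 and 55.7 in DMSO and 65.5, 26.4, 26.2 and 30.4 in A10i hearts (log2 fold change 3.32 ± 0.60 SE, adjusted p = 0.00360, edgeR). Col16a1 measured 15.4, 10.2 and 11.4 CPM in sham, 18.9, 39.1, 25.3 and 52.2 in DMSO and 63.0, 33.4, 38.5 and 44.8 in A10i hearts and rose too (log2 fold change 1.46 ± 0.33 SE, adjusted p = 0.00883, edgeR), but not without A127, A128 or A129. Col14a1, which regulates the growth of fibrils in width, did not follow them. Its level was 38.9, 29.8 and 32.3 CPM in sham, 20.3, 56.9, 31.0 and 62.5 in DMSO and 102, 63.4, 76.6 and 73.4 in A10i hearts, so that DMSO libraries lay on both sides of sham (log2 fold change 0.34 ± 0.34 SE, adjusted p = 0.456, edgeR). Col9a2, Col9a3, Col20a1 and Col22a1 reached at most 2.32 CPM in any library and were called in no comparison, and Col20a1 overlaps another gene on the same strand, so its counts are uncertain.

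The multiplexins sit at basement membranes, and Col18a1 is the precursor of endostatin. Col15a1 measured 151, 142 and 116.2 CPM in sham, 115, 204, 130.0 and 256 in DMSO and 343, 150.1, 211 and 209.8 in A10i hearts, with sham and infarcted hearts overlapping (adjusted p = 0.296 in DMSO against sham, edgeR). Col18a1 measured 19.7, 17.8 and 15.6 CPM in sham, 22.1, 48.5, 36.4 and 77.6 in DMSO and 91.9, 47.9, 48.3 and 49.4 in A10i hearts, above sham in each infarcted heart (log2 fold change 1.38 ± 0.36 SE, adjusted p = 0.0162, edgeR). It overlaps Slc19a1 on the opposite strand, and the strand setting of the counting is not given in the sources used here.

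The collagens left were low in the heart. Col25a1, a transmembrane collagen of nerve and brain, fell from 1.73, 0.636 and 1.37 CPM in sham to 0.422, 0.469, 0.233 and 0.432 in DMSO hearts (log2 fold change -1.67 ± 0.39 SE, adjusted p = 0.00859, edgeR), a call lost without any 1 DMSO library, and measured 0.277, 0.348, 0.330 and 0.450 CPM in A10i hearts. Col23a1 measured 2.64, 2.69 and 2.54 CPM in sham, 2.45, 2.81, 4.49 and 3.96 in DMSO and 2.97, 3.64, 2.39 and 3.42 in A10i hearts, and Col13a1, found at cell adhesions, 1.04, 1.46 and 1.33, 1.01, 1.04, 0.964 and 1.33 and 0.832, 1.28, 0.454 and 1.08 CPM in the same order. Both overlapped between groups. Col7a1, the anchoring fibril of skin, stood at 0.736, 0.935 and 1.77 CPM in sham, 2.36, 1.41, 1.93 and 10.6 in DMSO and 3.49, 1.04, 1.69 and 2.56 in A10i hearts, where A129 alone stood apart (log2 fold change 1.81 ± 0.75 SE, adjusted p = 0.0852, edgeR). Col28a1, a collagen of nerve, measured 1.91, 1.98 and 2.42 CPM in sham, 1.60, 1.64, 3.09 and 2.12 in DMSO and 2.38, 2.98, 1.36 and 2.07 in A10i hearts. Col26a1 measured 0.173, 0.449 and 0.564 CPM in sham, 0.337, 0.838, 0.532 and 0.902 in DMSO and 1.23, 0.773, 0.660 and 0.494 in A10i hearts, and neither was called.

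Inhibitor-treated infarcted hearts were compared with the same 3 sham hearts, so the 2 comparisons share their controls and are set side by side without a test between them. Of 38 collagens tested, 21 rose and 3 fell (edgeR's quasi-likelihood test, adjusted p under 0.01, where 13.7% of 16971 genes rose and 9.11% fell), with a median log2 fold change of 0.96 against -0.01 for all genes. The median moved to 0.64 without A116. Among the 38 were Col6a5 and Col9a2, which did not pass the filter in DMSO against sham, and over the other 36 genes 20 rose, 3 fell and the median was 0.84, a count added after seeing the data. The A10i hearts did not overlap sham in 21 collagens that were higher (20 of the 36) and 4 that were lower, compared with 24.8% and 23.5% of all genes. By class, 9 of 10 fibrillar, 4 of 5 beaded filament (3 of 4 without Col6a5), 2 of 2 network, 3 of 7 FACIT, 2 of 6 basement membrane and 1 of 2 multiplexin genes rose, and Col4a3, Col4a4 and Col25a1 fell. With S1 left out 16 rose and 1 fell, with S2 left out 16 rose and 2 fell, and with S3 left out 16 rose and 1 fell. Over all genes, these fits called between 1062 and 1117 higher, down from 2333, and between 543 and 602 lower, down from 1546.

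The log2 fold changes, first of DMSO and then of A10i against sham, were 2.85 and 3.63 for Col1a1, 2.12 and 2.90 for Col1a2, 2.42 and 2.96 for Col3a1 and 3.32 and 3.77 for Col12a1, all called. In the basement membrane they were 0.66 and 0.68 for Col4a1, -1.76 and -0.99 for Col4a3 and -1.62 and -1.07 for Col4a4, also called in both comparisons. In A10i against sham, the calls of Col4a1 and Col4a3 were lost without any 1 of the sham libraries, and that of Col4a4 held. A further 9 collagens were called in A10i hearts, with 0.55 and 0.53 for Col4a2, 0.31 and 0.61 for Col6a1, 0.46 and 0.68 for Col6a2, 0.56 and 1.46 for Col8a2, 3.12 and 4.27 for Col11a1, 0.34 and 1.23 for Col14a1, 1.38 and 1.75 for Col18a1 and 2.10 and 3.55 for Col24a1, the first value of each being not called by edgeR. DESeq2 called 17 collagens higher in DMSO against sham, among them Col4a2, Col6a2, Col11a1 and Col18a1 of these. The last was Col6a5, another alternative to Col6a3, which had 1, 0 and 1 counts in sham, 3, 2, 1 and 1 in DMSO and 9, 12, 6 and 10 counts in A10i hearts, passed the filter through the A10i libraries alone and is given without a fold. Col4a5 (adjusted p = 0.185, edgeR) and Col6a6 (adjusted p = 0.0189) were called in DMSO but not in A10i hearts. Being called in 1 comparison and not in the other does not show a difference between the infarcted groups, which is tested next.

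**Figure D3:**
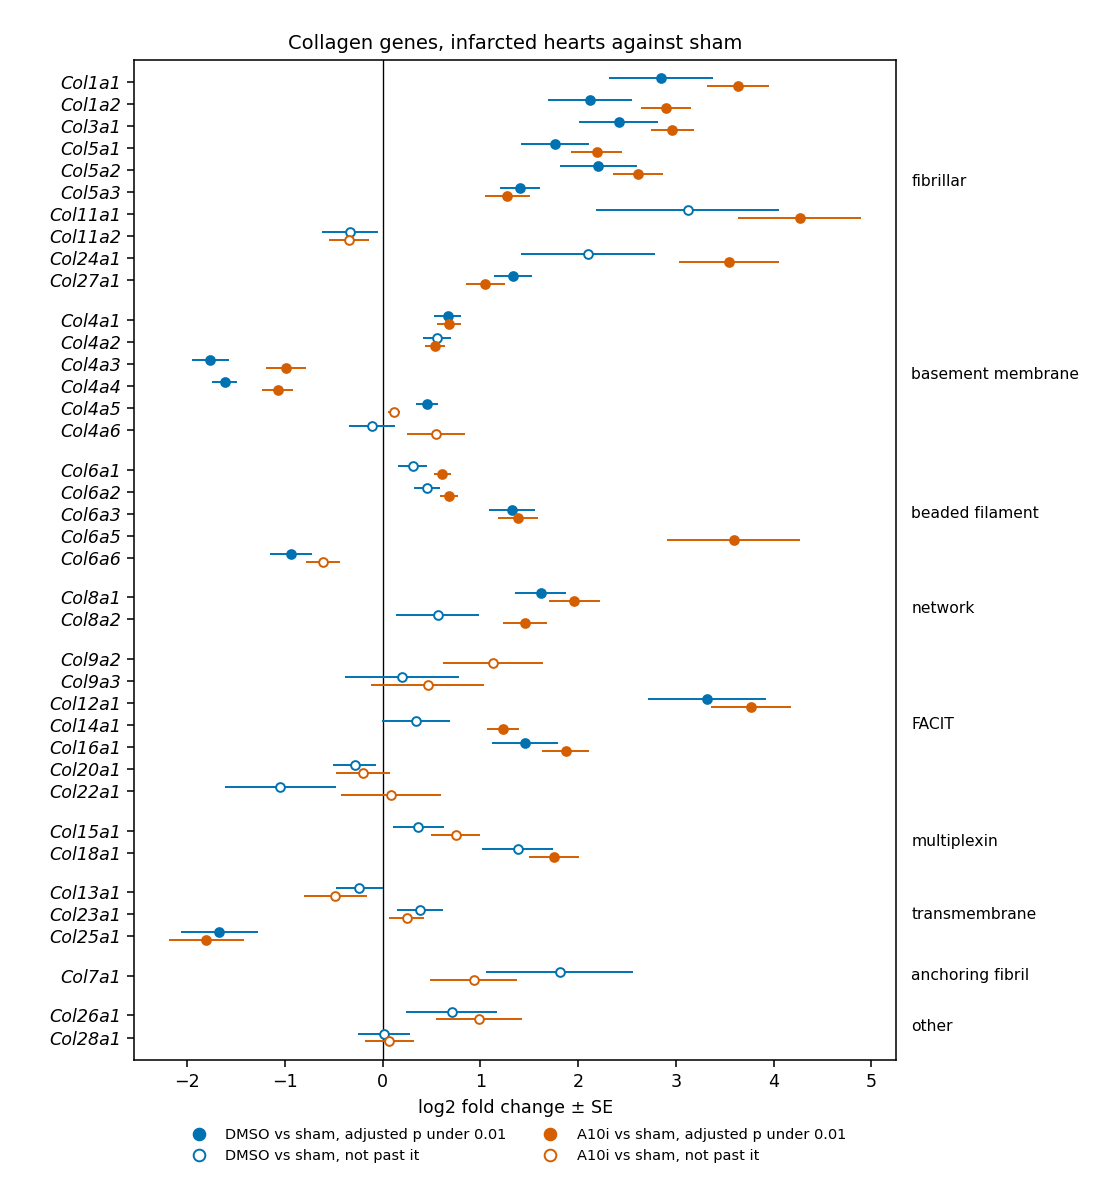
The log2 fold change ± SE of each tested collagen is drawn by class for DMSO against sham (blue) and A10i against sham (orange), with filled points for an adjusted p under 0.01. Fibrillar points lie mostly between 1 and 4, Col4a3, Col4a4 and Col25a1 lie left of 0 as filled points in both comparisons, and orange lies right of blue for Col1a1, Col1a2, Col3a1 and Col14a1.

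Whether the inhibitor changed collagen expression after MI was tested between the 4 A10i and the 4 DMSO hearts. None of 35 collagens was called in either direction at an adjusted p under 0.01 by edgeR, DESeq2 or limma-voom, nor in any fit that left out 1 library, and the background in edgeR was 0 of 16792 genes (0%). Over all genes DESeq2 called 104 higher and 123 lower. At an unadjusted p under 0.05, 6 collagens were higher and 1 was lower with A10i (edgeR), compared with 7.10% and 6.73% of all genes. The median log2 fold change of the 35 was 0.34, against 0.00 for all genes, and 27 of 35 lay above 0, against 50.7% of all genes. The median fell to 0.12 without A116 and to 0.18 without A105 and rose to 0.51 without A129, so single mice at either end of the collagen range moved it.

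The type I and III genes were higher on average with A10i but spread widely. Col1a1 averaged 849 ± 562 CPM in DMSO and 1456 ± 624 CPM in A10i hearts (SD, n = 4 each), a log2 fold change of 0.78 ± 0.49 (SE, adjusted p = 0.523, edgeR). Col1a2 (log2 fold change 0.77 ± 0.41 SE) and Col3a1 (log2 fold change 0.54 ± 0.37 SE) lay in the same range, and the groups overlapped for all 3 genes. The common basement membrane pair showed almost no difference of the means, with log2 fold change 0.01 ± 0.15 SE for Col4a1 and log2 fold change -0.03 ± 0.14 SE for Col4a2.

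The smallest p-values belonged to basement membrane genes of low or middle level. Col4a3 (log2 fold change 0.78 ± 0.21 SE, unadjusted p = 0.00374, adjusted p = 0.156, edgeR) and Col4a4 (log2 fold change 0.54 ± 0.15 SE, unadjusted p = 0.00458, adjusted p = 0.161) were higher in each A10i than in each DMSO heart, which besides them held only for Col14a1 (log2 fold change 0.89 ± 0.32 SE, adjusted p = 0.263) among the 35 and for 4.01% of all genes. Col4a5 was lower (log2 fold change -0.35 ± 0.10 SE, unadjusted p = 0.00665, adjusted p = 0.182, edgeR), and each A10i heart lay below each DMSO heart, with a narrow gap between A119 and A127, where no overlap downwards held for 4.11% of all genes. Col24a1 was higher (log2 fold change 1.45 ± 0.50 SE, unadjusted p = 0.0171, adjusted p = 0.248, edgeR) on few counts. Col4a6 (0.65) and Col8a2 (0.89, log2 fold change) completed the 7. No collagen passed the correction over all genes.

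**Figure D4:**
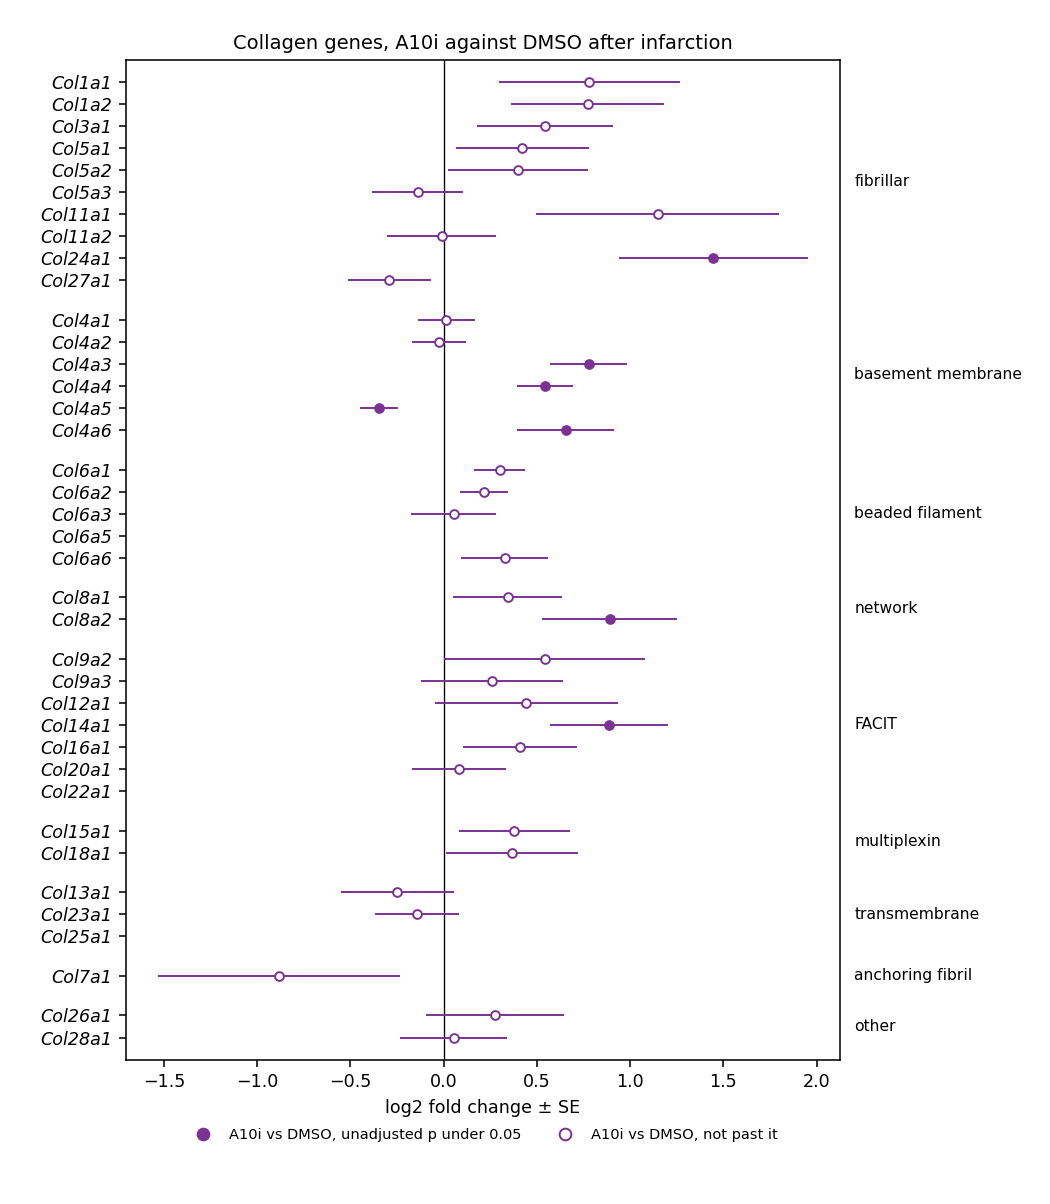
The log2 fold change ± SE of A10i against DMSO is drawn for the 35 collagens tested, with filled points for an unadjusted p under 0.05, and names without a point were not tested. Most points lie right of 0, the filled ones are Col24a1, Col4a3, Col4a4, Col4a5, Col4a6, Col8a2 and Col14a1, and Col4a5 is the 1 filled point on the left.

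Chains of the same type, and the leading chains of types III and I, were also compared within a library, where the ratio of their counts per kb does not depend on library scaling. For type I, Col1a1 over Col1a2 was 1.38, 1.29 and 1.36 in sham, 1.79, 2.33, 1.98 and 2.36 in DMSO and 2.38, 2.09, 2.15 and 2.21 in A10i hearts. All 8 infarcted hearts lay above the 3 sham hearts, and A105 was the nearest to them. The ratio of Col3a1 to Col1a1 was 1.62, 1.58 and 1.402 in sham, 1.52, 0.988, 1.46 and 1.06 in DMSO and 0.848, 1.21, 1.03 and 0.934 in A10i hearts, so A10i hearts lay below sham and DMSO hearts fell into 2 near sham and 2 among the A10i hearts. The ratio of Col6a3 to Col6a1 was 0.210, 0.2195 and 0.171 in sham, 0.381, 0.385, 0.378 and 0.462 in DMSO and 0.429, 0.347, 0.309 and 0.279 in A10i hearts, again with no overlap of sham with either group.

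For type V, Col5a1 over Col5a2 was 1.59 to 1.74 in sham, 1.09 to 1.37 in DMSO and 1.13 to 1.28 in A10i hearts. Col4a1 over Col4a2 was 1.11 to 1.17 in sham, 1.14 to 1.29 in DMSO and 1.20 to 1.35 in A10i hearts, so that A10i but not DMSO hearts lay above all sham hearts. Col6a1 over Col6a2 was 1.86 to 1.93 in sham, 1.61 to 1.77 in DMSO and 1.75 to 1.86 in A10i hearts, below all sham hearts in both infarcted groups. For A10i the gap was very narrow, 1.8599 in A120 against 1.8634 in S1. Col8a1 over Col8a2 ranged from 19.6 to 23.9 in sham, 32.9 to 68.3 in DMSO and 23.7 to 34.7 in A10i hearts.

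In 21 tests (7 ratios in 3 comparisons), 11 had groups that did not overlap, all against sham, and these reached the smallest p that 3 against 4 hearts allow (exact permutation test, two-sided, p = 0.0571, adjusted p = 0.0923). Between A10i and DMSO hearts no ratio was free of overlap, the smallest p being 0.0571 for Col8a1 over Col8a2 and for Col6a1 over Col6a2 (exact permutation test), where 4 against 4 hearts could reach 0.0286. With 3 sham against 4 infarcted hearts this two-sided test cannot pass 0.05.

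**Figure D5:**
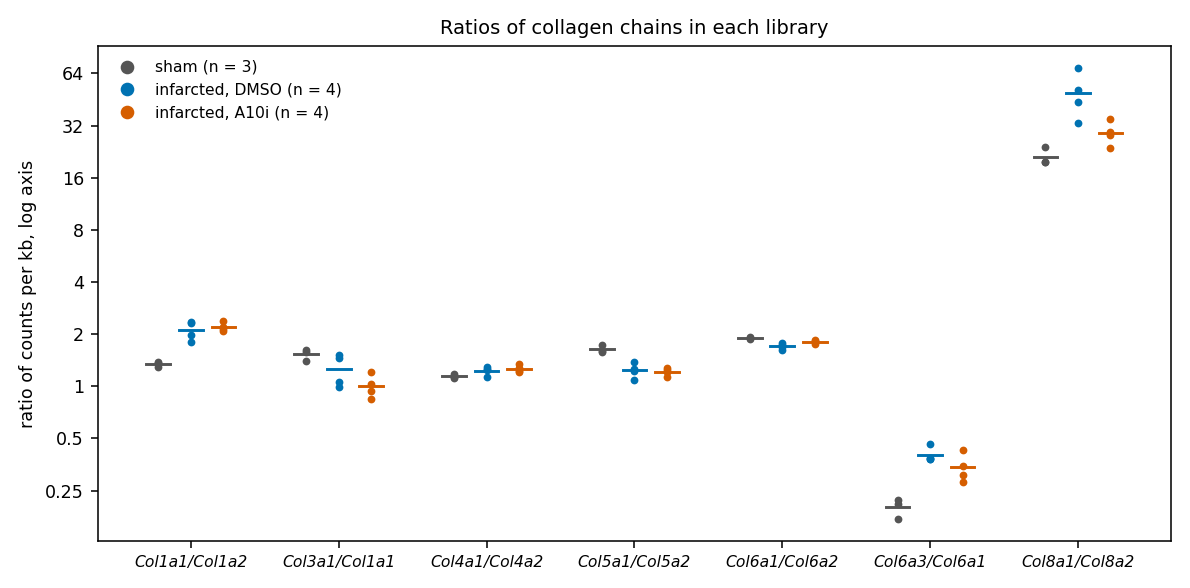
Each dot is the ratio of counts per kb of 2 collagen chains in 1 library on a log axis, with a bar at the group mean (sham n = 3, DMSO n = 4, A10i n = 4). Infarcted hearts lie above sham for Col1a1/Col1a2 and Col6a3/Col6a1 and below it for Col5a1/Col5a2.

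The genes that make, secrete, link, bind and degrade collagen were read from the same fits, as 59 genes in 6 lists. In DMSO against sham hearts, 27 of 57 tested rose and 3 fell, and in A10i against sham hearts 37 rose and 1 fell (edgeR, adjusted p under 0.01), beside the shares of all genes given above. Without 1 sham library the first count was 13 (S1), 10 (S2) or 11 (S3) and the second 26, 25 or 24. Calls over all genes fell in the same fits, as given above. None was called between A10i and DMSO hearts by edgeR, and DESeq2 called 1.

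For folding and modification in the endoplasmic reticulum, 8 of 17 rose and 1 fell in DMSO and 13 rose and 1 fell in A10i hearts. Fkbp10, a chaperone of procollagen, rose in DMSO hearts (log2 fold change 1.51 ± 0.14 SE), and Colgalt2, a galactosyltransferase of collagen, fell (log2 fold change -1.16 ± 0.13 SE). For secretion and propeptide removal, 3 of 11 rose in DMSO hearts, led by Adamts2 (log2 fold change 1.24 ± 0.21 SE) and Adamts14 (log2 fold change 1.08 ± 0.21 SE), which cleave procollagen. In A10i hearts the 3 were Adamts2, Bmp1 and Pcolce, and Adamts14 was not called (adjusted p = 0.0117, edgeR). All 6 crosslinking genes rose in each comparison, and Lox, the lysyl oxidase that starts the crosslinks, went from 2.42, 2.84 and 4.15 CPM in sham to 47.6, 126.8, 99.3 and 264 in DMSO hearts (log2 fold change 5.41 ± 0.65 SE, adjusted p = 0.000647, edgeR), followed by Loxl4 (log2 fold change 2.83 ± 0.36 SE).

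Of 8 fibril assembly partners, 6 rose in A10i hearts, and 3 rose and Tnxb fell in DMSO hearts, where the largest rises were those of Postn, a matricellular protein of activated fibroblasts (log2 fold change 2.65 ± 0.57 SE), and Fn1, the fibronectin on which fibrils assemble (log2 fold change 2.59 ± 0.47 SE). Of 9 receptors tested, 6 rose in A10i hearts, and 4 rose and Itga1 fell in DMSO hearts, where the largest rises were those of the integrin Itga2 (log2 fold change 2.23 ± 0.39 SE) and Mrc2, which takes up collagen fragments (log2 fold change 0.98 ± 0.21 SE). Of 6 degrading enzymes, Mmp8, Mmp9 and Mmp14 rose in DMSO hearts. In A10i hearts Mmp8, Mmp14 and Ctsk rose, and Mmp9 was not called (adjusted p = 0.0113, edgeR). Mmp8, a collagenase of neutrophils, measured 0, 0 and 0.121 CPM in sham and 6.49, 6.70, 8.68 and 10.4 in DMSO hearts, and Mmp9, a gelatinase also carried by neutrophils, had a log2 fold change of 4.23 ± 0.30 SE. Lox, Postn and Fn1 also stand in the list of activated fibroblast markers, and Mmp8 in that of neutrophil markers. Dcn and Lum, among the assembly partners that rose in A10i hearts, also stand in the list of fibroblast markers.

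Between A10i and DMSO hearts, the log2 fold changes of these genes were -0.21 for Fkbp10, 0.41 for Colgalt2, 0.23 for Adamts2, -0.05 for Adamts14, 0.11 for Lox and -0.41 for Loxl4. They were 0.98 for Postn, 0.23 for Fn1, -0.27 for Itga2, 0.19 for Mrc2, -1.03 for Mmp8 and -1.84 for Mmp9, and no adjusted p was below 0.121 among them (edgeR). The smallest adjusted p of all 57 tested was that of Fmod (log2 fold change 0.84 ± 0.19 SE, adjusted p = 0.112, edgeR). At an unadjusted p under 0.05 (edgeR), 6 of the 57 were higher and 2 lower, compared with 7.10% and 6.73% of all genes.

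Markers of several cell types also differed between the groups, and only some lists followed the order of mice seen for the collagens. Summed over 8 activated fibroblast markers, of which 6 rose in each comparison with sham, the level was 250.3 to 299 CPM in sham, 692 to 2294 in DMSO and 1119 to 2991 in A10i hearts, with A105 lowest and A129 highest among DMSO and A116 highest among A10i hearts. The 10 fibroblast markers summed to 2059.5 to 2224 CPM in sham, 1528 to 2087 in DMSO and 1947 to 2696 in A10i hearts. Here A129 was lowest among DMSO and A116 lowest among A10i hearts. Of the 10, 2 rose in DMSO and 8 in A10i hearts. Against sham, 12.9% of all genes rose and 9.60% fell in DMSO hearts. In A10i hearts 13.7% rose and 9.11% fell. Marker counts near these shares do not set a list apart from other genes. The mean sum was lower in DMSO than in sham hearts (1801 against 2136 CPM), although 8 of the 10 had a log2 fold change above 0. The lowest was that of Gsn (log2 fold change -0.70 ± 0.20 SE, not called). The 9 cardiomyocyte markers summed to 74885 to 77668 CPM in sham, 37231 to 51646 in DMSO and 42512 to 58457 in A10i hearts. Again A129 was lowest among DMSO and A116 lowest among A10i hearts. Of these markers 5 were lower in DMSO and 3 lower in A10i hearts, and these markers of heart muscle were high in every library.

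The 8 macrophage markers summed to 351 to 384, 561 to 962 and 755 to 1409 CPM in the same order (6 and 8 rose), and the 8 neutrophil markers to 1.12 to 2.12, 73.0 to 146 and 14.1 to 50.5 CPM (7 rose in both). The 8 mural cell markers summed to 1538 to 1621, 761 to 1008 and 922 to 1149 CPM (4 fell in both), and the 9 endothelial markers to 1308 to 1316, 1094 to 1209.5 and 1254 to 1364 CPM (3 and 1 fell). Summed levels were 19.7 to 21.4, 20.8 to 23.8 and 24.2 to 24.9 CPM for 6 Schwann cell, 26.4 to 43.1, 41.3 to 65.3 and 54.2 to 113 CPM for 6 epicardial and mesothelial and 1.79 to 7.14, 2.46 to 7.38 and 7.02 to 25.6 CPM for 6 adipocyte markers. The 6 chondrocyte markers summed to 5.23 to 10.8, 14.6 to 23.5 and 17.6 to 30.3 CPM, with Acan, Matn1 and Hapln1 below 1 CPM in every library. Among these lists, 3 epicardial and mesothelial markers rose in both comparisons, 1 Schwann cell marker rose in A10i hearts and no adipocyte marker was called. The shares of all genes called against sham, 12.9% higher and 9.60% lower in DMSO and 13.7% and 9.11% in A10i hearts, stand beside all these counts. Of the chondrocyte markers, Sox9 rose in both comparisons and Comp in A10i hearts. Acan was also called there, but it passed the filter through the A10i libraries and was not tested in DMSO against sham. Of 7 skeletal muscle markers, 6 were below 1 CPM in every library and the sum was at most 6.00 CPM, and Tnnt3 was called higher in A10i against sham hearts. No marker was at 0 in all libraries, none was called between A10i and DMSO hearts by edgeR. At an unadjusted p under 0.05 (edgeR), 7 of 7 neutrophil markers tested and 1 of 10 fibroblast markers were lower in A10i than in DMSO hearts. Higher were 5 of 6 epicardial and mesothelial, 5 of 8 macrophage, 4 of 10 fibroblast and 2 of 8 activated fibroblast markers. So were 2 of 9 endothelial, 2 of 5 chondrocyte, 2 of 4 adipocyte and 1 of 8 mural cell markers tested. Over all genes, 7.10% were higher and 6.73% lower at this threshold. The part of these cell types in the collagen values was not tested.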

How the data were processed

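RNA of 11 mouse hearts (3 sham, 4 DMSO and 4 A10i) was sequenced from poly(A)-enriched, strand-specific libraries. The authors demultiplexed with bcl2fastq 2.20.0, aligned to mm10 with GSNAP and deposited raw counts of uniquely aligned fragments per Ensembl gene from featureCounts 2.0.1. The strand setting is not given in the sources used here. Counts in chains of near-identical sequence would be lost where fragments align in more than 1 place. Of 55513 rows, 92 ERCC spike-in rows, at most 0.000194% of a library's counts, were left out, and 55154 identifiers were named by GENCODE M21. Samples were grouped by their labels, and p-values judge differences between groups against the spread between mice.

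For each pair of groups, counts were filtered with filterByExpr, scaled by TMM and tested in edgeR 4.0.16 by the robust quasi-likelihood F-test on the libraries of that pair, with Benjamini-Hochberg adjustment over all genes tested and a threshold of 0.01. The SE is the log2 fold change divided by the square root of F. CPM used TMM-scaled library sizes, and levels were compared between genes per kb of exonic length. Ratios of chains were compared by exact two-sided permutation tests in scipy 1.17.1. Alternatives were DESeq2 1.42.0, limma-voom (limma 3.58.1), DESeq2 size factors, library size alone, other filters, 1 fit of all 11 libraries, an adjusted p under 0.05, no length correction, mitochondrial genes left out of the total and leaving out each library. Scripts ran in R 4.3.3 and Python 3.11.15 and were tested on simulated data.

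The members, the gene lists and the tests were chosen with earlier results of these data known. Library values are given for up to 3 members per class with the highest mean, the 5 called members with the largest rise and the 5 with the largest fall in DMSO against sham, and the 4 with the smallest p in A10i against DMSO. Those of Col5a1, Col5a3, Col11a1 and Col27a1 were added after their values were seen. From each list of collagen-handling genes, the 2 called genes with the largest absolute change in DMSO against sham are named. RefSeq windows (GRCm38.p6) were searched for the 3 motifs on both strands.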

Additional observations from a re-analysis of the deposited data

Results flagged for a closer look

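In 6 of 54 groups of 4 libraries, the highest or lowest library lay apart from the other 3 by more than Dixon's 95% critical value for its gap over the range, and chance flags about 1 in 20 groups. In 5 of them the library was that of A10i mouse A116. Its Col3a1 level of 3005 CPM compared with 1731 to 1895 CPM in the other A10i hearts, and its Col5a2 level of 421 CPM with 215 to 241 CPM. Its Col4a1 level was 1116 CPM against 823 to 855 CPM, and its Col12a1 level was 65.5 CPM against 26.2 to 30.4 CPM. Its Col18a1 level was 91.9 CPM, with 47.9 to 49.4 CPM in the others. In the remaining group, DMSO mouse A129 had 10.6 CPM of Col7a1, while the other DMSO hearts had 1.41 to 2.36 CPM. The 5 collagens of A116 are not independent of each other, since they come from the same heart.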

How the results depend on the processing

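The count of collagens called against sham depended on the setting, most of all on the number of sham libraries. In DMSO against sham hearts 6 rose without a filter, and 2 fell with library size alone, which moves the median log2 fold change of all genes to 0.21. Leaving out 1 library gave 2 to 16 higher and 2 to 3 lower, and in A10i against sham 16 to 22 higher and 1 to 4 lower. Of the collagen-handling genes, 1 fell with library size alone in DMSO against sham, and leaving out 1 library gave 10 to 32 higher and 1 to 3 lower. In A10i against sham, 4 fell at an adjusted p under 0.05 and 0 with library size alone, and leaving out 1 library gave 24 to 40 higher and 0 to 2 lower. DESeq2 called 1 such gene higher in A10i against DMSO, and every alternative called 0 collagens there. Leaving out a library leaves fewer samples in the fit, and for the other settings the cause was not tested.

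With mitochondrial genes left out of the total, the mean share of counts in sham hearts was 0.273% for all collagens, 0.0808% for fibrillar, 0.128% for basement membrane, 0.0352% for beaded filament, 0.00602% for FACIT and 0.00427% for network genes, and in A10i hearts 0.204% for basement membrane and 0.0666% for beaded filament genes.

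Col28a1 had a log2 fold change of -0.0286 with limma-voom in DMSO against sham, and of -0.23 to 0.12 with 1 library left out (-0.11 to 0.24 in A10i against sham). Between A10i and DMSO hearts, the ranges with 1 library left out were -0.10 to 0.13 for Col4a1, -0.10 to 0.081 for Col4a2, -0.14 to 0.29 for Col6a3, -0.27 to 0.022 for Col23a1, -0.13 to 0.31 for Col28a1, -0.015 to 0.46 for Col26a1 and -1.20 to 0.21 for Col7a1, the upper end being without A129. They were -0.0077 to 0.12 for the log2 ratio of Col1a1 to Col1a2, -0.0055 to 0.057 for that of Col4a1 to Col4a2 and -0.077 to 0.032 for that of Col5a1 to Col5a2. No paired analysis was possible because the groups share no replicate numbers.

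Depth limits the genes below about 1 CPM, where groups of 3 or 4 hearts hold few counts. The two-sided exact test of a ratio in 3 sham against 4 infarcted hearts cannot pass 0.05.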
